A study of Homo sapiens with 6 samples.

Results

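The subunits of the oxidative phosphorylation machinery were followed in HDQ-P1 cells, an established human breast cancer cell line. Members were the protein-coding genes whose symbols name a subunit of complexes I to V, without assembly genes, plus the 13 protein genes of mitochondrial DNA (mtDNA). The rule gave 103 genes of the 40295 in the count table, 90 encoded in the nucleus and 13 in mtDNA. It used no measured value. Of the nuclear genes, 37 belong to complex I, 4 to complex II, 10 to complex III, 19 to complex IV and 18 to complex V, and 2 are readthrough genes that join a subunit gene to its neighbour.

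RNA-seq covered 3 libraries of untreated cells and 3 of cells kept for 48 h in Y-320 at 1 µM. Y-320 is a phenylpyrazoleanilide, studied here because it raises the readthrough of premature stop codons by the aminoglycoside G418, and neither group received G418. Neither the labels nor the methods mention a solvent for the untreated group, and all 6 libraries come from 1 cell line. The libraries held 21045401 to 22740535 estimated counts each. The labels do not say whether the replicates are separate cultures, so p-values measure the spread between these samples, which may be technical. All 7 epithelial markers were detected, with a summed level of 11090 to 11610 CPM (counts relative to library depth, scaled by TMM) in the untreated and 7043 to 7112 CPM in the treated libraries. They moved both ways by edgeR, with 5 lower (KRT7, KRT8, KRT18 and KRT19 by -0.62 to -1.02 and CDH1 by -0.11 on the log2 scale) and 2 higher (EPCAM by 0.38 and CLDN4 by 0.23), and the keratins hold most of the sum. Leukocyte markers summed to at most 1.77 CPM, endothelial markers to at most 18.9 CPM, and fibroblast markers to 62.2 to 85.1 CPM in untreated against 33.1 to 46.2 CPM in treated libraries. The part of these markers in the results was not tested, and in bulk RNA fewer cells of a type and less RNA per cell cannot be told apart.

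Oxidative phosphorylation couples the oxidation of NADH and succinate to ATP synthesis across the inner mitochondrial membrane. Complexes I, III and IV pump protons while electrons pass from NADH to oxygen, complex II feeds in electrons from succinate, and complex V (ATP synthase) lets protons flow back through a rotating ring and makes ATP. Complexes I, III, IV and V are mosaics of proteins from both genomes, whereas complex II is wholly nuclear-encoded, and breast cancer lines grown in high glucose can draw on glycolysis as well.

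Transcripts of the nuclear-encoded subunits were lower on balance in Y-320-treated cells, by small amounts, while those of most mtDNA-encoded subunits did not pass the test. Of the 83 nuclear genes with enough counts to test, 41 were lower, 6 were higher and 36 were not called by edgeR's quasi-likelihood test at an adjusted p of 0.05. Their median log2 fold change was -0.089, a change of -5.98%. Of the 13 mtDNA genes 2 were lower (MT-CO3 and MT-CYB) and 0 higher, with a median of 0.008. At the same threshold 51.5% of all 16580 genes tested were called, 26.2% as higher and 25.4% as lower, with a median of 0.001. The share of nuclear members called lower was thus 49.4% against a background of 25.4%, and the share called higher 7.23% against 26.2%. Over the 14342 protein-coding genes tested, to which all members belong, 27.7% were lower and 27.5% higher. Of the mtDNA genes, 15.4% were called lower and 0% higher, shares that rest on only 13 genes.

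The called changes were shallow beside those of all called genes. Among the 47 nuclear members called, the median absolute log2 fold change was 0.184, and over all called genes it was 0.332. Genes were not matched for their level, on which the size of a change that can be called depends. Of the 83 nuclear members tested, 47 had every treated library below every untreated library and 7 had every treated library above. Over all 16580 genes tested, 4875 had every treated library below and 4944 every treated library above, together 59.2%. Many subunit genes share sequence with processed pseudogenes or paralogs, and 61 of the 103 members share over 10% of their 31-base words with another gene. Among the 35 nuclear complex subunits tested that share no more than that, 11 were lower (31.4%) and 2 higher (5.71%). Their share of lower calls lay nearer to the background than that of all nuclear members.

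**Figure D1:**
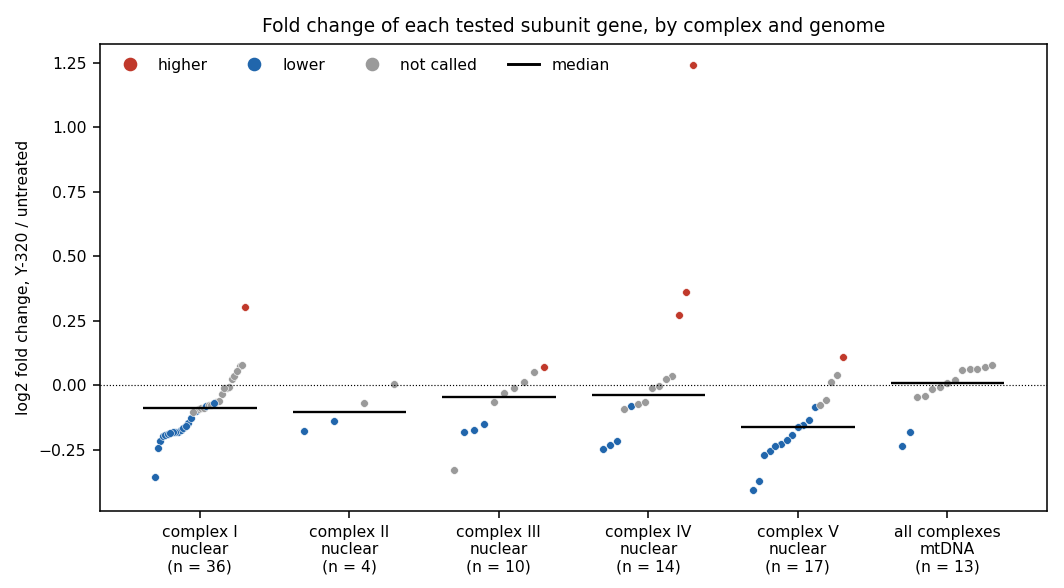
Log2 fold change (y axis, Y-320 over untreated) of each tested subunit gene, with nuclear genes split by complex and the mtDNA genes together (x axis). Each point is 1 gene, coloured by its call at an adjusted p of 0.05, black bars are medians and the dotted line is the median of all genes tested. The complex V points lie lowest, with a median of -0.163, and the mtDNA genes cluster near 0 apart from MT-CO3 and MT-CYB.

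Summed over each genome, nuclear subunit transcripts took 0.978%, 0.985% and 0.965% of the counts in the untreated libraries and 0.927%, 0.920% and 0.915% in the treated ones. The groups did not overlap. The 13 mtDNA genes took 1.69%, 1.74% and 1.76% of the counts in the untreated and 1.78%, 1.65% and 1.75% in the treated libraries, and these groups overlapped. In TMM-scaled CPM the nuclear sum fell to 0.935 times its untreated mean and the mtDNA sum stood at 0.989 times. The ratio of the mtDNA sum to the nuclear sum was 1.77 ± 0.0432 (mean ± SD, n = 3) in untreated and 1.88 ± 0.0725 (n = 3) in treated libraries, and its ranges overlapped, with Y-320 replicate 2 (1.79) below untreated replicate 3 (1.82).

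Complex V held the lowest values. ATP synthase consists of the catalytic F1 head, a membrane part with the rotating c-ring, and a peripheral stalk that holds the head still. Of its 17 nuclear genes tested, 12 were lower (70.6%) and 1 higher (5.88%), with a median log2 fold change of -0.163. Their summed level was 2967 ± 35.9 CPM in untreated and 2638 ± 19.9 CPM in treated libraries (mean ± SD, n = 3 each), a ratio of 0.889. The same ratio was 0.935 for complex I, 0.962 for complex II, 0.977 for complex III and 0.971 for complex IV. Differences between complexes were not tested. Among the lower genes, ATP5MC3 and ATP5F1B share 3.79% and 1.27% of their words with another gene. All other lower genes share more, from 16.2% (ATP5MC1) to 62.3% (ATP5PO). ATP5F1D and ATP5MJ, which share none, were not called. The part of shared sequence in the complex V calls was not tested.

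The c-ring genes all fell. The identical mature c-subunit is made from 3 genes, ATP5MC1, ATP5MC2 and ATP5MC3, which differ in their mitochondrial targeting peptides. ATP5MC3 (chr2:175176258-175181710, minus strand, GRCh38) stood at 190.3, 191.9 and 188.4 CPM in untreated and 143.6, 142.5 and 144.6 CPM in treated libraries. Its log2 fold change was -0.41 (SE 0.024, adjusted p = 3.1e-07, edgeR), the largest fall among the subunits assigned to a complex. ATP5MC2 (chr12:53632726-53677408, minus strand) stood at 126.9, 137.3 and 139.4 CPM against 103.4, 104.9 and 103.3 CPM, a log2 fold change of -0.37 (SE 0.037, adjusted p = 1.3e-05, edgeR). Both genes had all treated libraries well under all untreated ones. ATP5MC1 fell less, with a mean of 86.4 ± 3.79 CPM in untreated and 77.7 ± 2.35 CPM in treated libraries (SD, n = 3) and a log2 fold change of -0.15 (adjusted p = 0.0075, edgeR). Together the 3 genes gave 406.8, 416.6 and 410.0 CPM in untreated and 324.0, 327.7 and 323.7 CPM in treated libraries, 0.791 times the untreated mean.

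In the F1 head, which binds the nucleotides, 4 of 5 genes fell. ATP5F1A, the alpha subunit, fell from 290.4 ± 9.75 to 243.3 ± 3.03 CPM (mean ± SD, n = 3; log2 fold change -0.26, adjusted p = 3.4e-05, edgeR). Its partner ATP5F1B, the catalytic beta subunit, fell by 0.085 on the log2 scale, and this call was lost without Y-320 replicate 2 (adjusted p = 0.062, edgeR). The gamma subunit gene ATP5F1C changed by -0.23 and the epsilon subunit gene ATP5F1E by -0.19 (log2). ATP5F1D, the delta subunit, was not called, at 59.9 ± 0.958 against 60.4 ± 3.08 CPM (SD, n = 3).

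Of the peripheral stalk genes ATP5PB (-0.24), ATP5PO (-0.21) and ATP5PF (-0.16) were lower on the log2 scale, and ATP5PD was not called at -0.078 (adjusted p = 0.056, edgeR). The small membrane subunits were mixed. ATP5MF fell by 0.27 and ATP5MG by 0.13 on the log2 scale, ATP5MJ and ATP5ME were not called, and ATP5MK, a subunit tied to the dimer interface, was higher by 0.11 (adjusted p = 0.017, edgeR). ATP5MK stood at 92.7, 93.4 and 87.4 CPM in untreated and 100.2, 97.4 and 97.7 CPM in treated libraries, and its call was lost under upper quartile scaling (adjusted p = 0.060, edgeR) and without untreated replicate 3 (adjusted p = 0.076) or Y-320 replicate 1 (adjusted p = 0.050). The inhibitor of the reverse reaction, ATP5IF1, is not a subunit and was not called (log2 fold change -0.036).

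**Figure D2:**
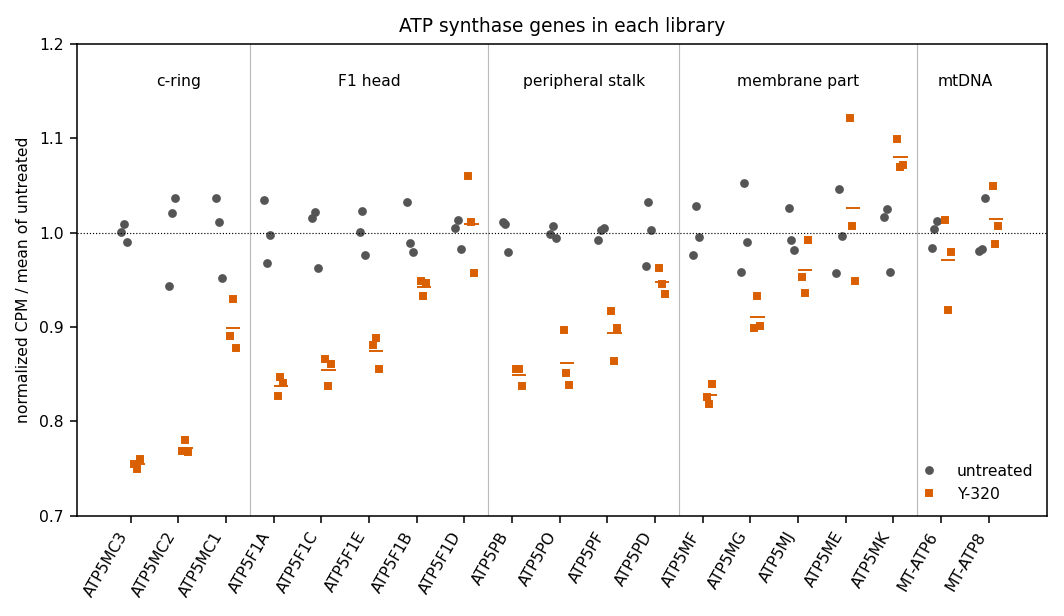
Normalized CPM of each tested ATP synthase gene divided by its untreated mean (y axis) for the genes grouped by part of the enzyme (x axis). Grey circles are the 3 untreated libraries, orange squares the 3 treated libraries and orange bars their mean. ATP5MC3 and ATP5MC2 sit lowest, and the mtDNA-encoded MT-ATP6 and MT-ATP8 overlap between groups.

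Complex I, which oxidises NADH, showed a similar but smaller tilt. Of its 36 nuclear genes tested 18 were lower (50.0%) and 1 higher (2.78%), with a median log2 fold change of -0.09. The lower calls fell on supernumerary subunits (15 of 29 tested) and on the catalytic core of the hydrophilic arm (3 of 7). Of the 11 NDUFB genes, whose products lie in the membrane arm, 7 were lower. NDUFB6 stood at 40.5, 35.4 and 40.0 CPM in untreated and 28.6, 31.4 and 30.7 CPM in treated libraries (chr9:32553001-32573184, minus strand). All treated values lay under all untreated values, and the log2 fold change was -0.36 (SE 0.059, adjusted p = 5.1e-04, edgeR). NDUFB4 fell by 0.24 and NDUFB3 by 0.22 on the log2 scale.

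In the core, NDUFV2, an iron-sulfur protein of the NADH-oxidising module, fell from 413.7 ± 8.47 to 364.2 ± 7.35 CPM (mean ± SD, n = 3; log2 fold change -0.18, adjusted p = 1.5e-04, edgeR), although 89.6% of its words occur in another gene. NDUFV1, which carries the flavin, was lower by 0.067 on the log2 scale. This call was lost in several alternatives, such as fitting without a filter on low counts (adjusted p = 0.083, edgeR). The iron-sulfur subunit NDUFS1 was not called at 0.054, nor were NDUFS3 (-0.059), NDUFS7 (-0.075) and NDUFS8 (-0.11) on the log2 scale. NDUFS8 had an adjusted p of 0.055 with edgeR and overlapped between groups.

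A single complex I gene was higher. NDUFV3, an accessory subunit of the NADH-oxidising module with a short and a long isoform, stood at 35.1, 34.6 and 37.0 CPM in untreated and 46.6, 42.3 and 43.0 CPM in treated libraries (chr21:42879644-42913304, plus strand). The groups did not overlap, and the log2 fold change was 0.31 (SE 0.048, adjusted p = 3.7e-04, edgeR). Of the words of NDUFV3, 18.5% are shared with other genes. The count table gives 1 row per gene, so its isoforms were not separated. NDUFA1 was close to the threshold at 0.077 on the log2 scale (adjusted p = 0.052, edgeR), with all treated libraries above all untreated ones.

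The nuclear promoters were inspected for the words of factors known to serve respiratory genes, NRF1 (the nuclear respiratory factor) and the ETS family that includes GABP. RefSeq promoter sequences (GRCh38.p14) matched 70 of the 90 nuclear members, and the 250 bases before the first listed start were searched on both strands. The 8-base NRF1-type word GCGCATGC (reverse complement GCATGCGC) occurred in 12 of the 70 promoters, 17.1%, and in 2.81% of all 27305 promoters. The ETS-type word CCGGAAGT (reverse complement ACTTCCGG) occurred in 10 of 70, 14.3%, and in 3.64% of all. The NRF1-type word was found in 6 of 31 members called lower (19.4%) and in 5 of 30 not called (16.7%). Of the 5 higher members with a promoter, 0 held the NRF1-type word and 2 held the ETS-type word, which was also in 2 of 31 members called lower (6.45%) and in 6 of 30 not called (20.0%). A match describes letters and not a bound site. Below are 4 promoters on the plus strand with the searched words in capitals, chosen to show the NRF1-type word in lower genes of complex I, both words in a gene that was not called (COX5B) and the ETS-type word in a higher gene (UQCRQ). In NDUFB4 the word and its reverse complement overlap and form a palindrome.
NDUFS6 (lower, chr5:1801157-1801406): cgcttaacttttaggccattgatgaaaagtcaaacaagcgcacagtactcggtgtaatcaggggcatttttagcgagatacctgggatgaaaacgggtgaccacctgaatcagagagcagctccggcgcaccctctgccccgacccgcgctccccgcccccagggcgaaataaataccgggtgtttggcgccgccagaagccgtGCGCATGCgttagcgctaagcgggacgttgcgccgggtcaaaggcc
NDUFB4 (lower, chr3:120596086-120596335): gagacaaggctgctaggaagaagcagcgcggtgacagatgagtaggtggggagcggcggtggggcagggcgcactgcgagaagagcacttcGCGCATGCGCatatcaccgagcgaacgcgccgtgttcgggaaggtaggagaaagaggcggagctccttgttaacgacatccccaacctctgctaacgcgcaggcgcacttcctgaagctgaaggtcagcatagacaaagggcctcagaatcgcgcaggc
COX5B (not called, chr2:97645812-97646061): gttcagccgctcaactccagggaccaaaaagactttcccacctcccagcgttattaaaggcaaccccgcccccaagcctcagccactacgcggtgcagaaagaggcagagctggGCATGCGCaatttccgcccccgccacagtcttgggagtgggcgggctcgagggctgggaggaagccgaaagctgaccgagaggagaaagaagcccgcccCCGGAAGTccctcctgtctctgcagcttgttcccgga
UQCRQ (higher, chr5:132866392-132866641): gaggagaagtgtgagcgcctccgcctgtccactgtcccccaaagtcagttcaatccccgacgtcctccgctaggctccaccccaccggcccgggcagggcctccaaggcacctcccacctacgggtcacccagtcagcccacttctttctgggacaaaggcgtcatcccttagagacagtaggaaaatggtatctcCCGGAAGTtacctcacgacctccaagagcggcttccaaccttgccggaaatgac

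Complex II, succinate dehydrogenase, links the chain to the citric acid cycle. Its membrane anchors fell while its catalytic subunits were not called. SDHD stood at 57.8, 58.4 and 58.9 CPM in untreated and 51.2, 52.2 and 51.5 CPM in treated libraries (log2 fold change -0.18, SE 0.031, adjusted p = 8.4e-04, edgeR). SDHC fell by 0.14 on the log2 scale (adjusted p = 0.0029, edgeR), again without overlap. SDHA, the flavoprotein, stood at 285.8 ± 0.868 against 287.1 ± 2.94 CPM (mean ± SD, n = 3), and SDHB, the iron-sulfur subunit, at 75.7 ± 3.65 against 72.3 ± 3.55 CPM. SDHA shares 80.0% of its words with another gene and SDHD 33.2%. Whether the anchors and the catalytic pair differ was not tested.

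In complex III, 3 of 10 nuclear genes were lower and 1 higher. The share called lower was near the 25.4% of all genes tested, and the share called higher was below their 26.2%. Both shares rest on only 10 genes. The Rieske iron-sulfur protein UQCRFS1 fell from 122.6 ± 3.18 to 108.1 ± 0.622 CPM (mean ± SD, n = 3; log2 fold change -0.18, adjusted p = 3.6e-04, edgeR), and the small subunits UQCR10 and UQCRB fell by 0.17 and 0.15 on the log2 scale. UQCRQ was higher by 0.072 (adjusted p = 0.047, edgeR), a call lost in 8 of the 15 alternatives. The cytochrome c1 gene CYC1 (0.050) and the core proteins UQCRC1 (0.011) and UQCRC2 (-0.063) were not called on the log2 scale. UQCRH, the hinge protein, was not called at 215.1 ± 3.92 against 210.7 ± 3.04 CPM (SD, n = 3), nor was its paralog UQCRHL at about 1 CPM.

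Complex IV, cytochrome c oxidase, has several nuclear subunits with alternative isoforms for tissue or low oxygen. The form COX4I1 stood at 256.2 ± 10.4 against 262.4 ± 2.84 CPM (mean ± SD, n = 3; not called), while COX4I2 was at 0 counts in all 6 libraries, which allows at most 0.143 CPM in the shallowest. COX6A2 and COX7B2 were at 0 counts too, COX8C reached 0.5 estimated counts, and COX7A1 held 2 to 8 counts. The counterparts COX6A1, COX8A and COX7A2 were not called, with log2 fold changes of -0.011, 0.025 and -0.0035. Of the 14 nuclear genes tested 4 were lower (28.6%), near the 25.4% of all genes tested. They were COX7C at -0.25, COX7B at -0.23, COX6B1 at -0.22 and COX5A at -0.079 on the log2 scale. The COX5A call was lost in 8 of the 15 alternatives.

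Of complex IV, 3 genes were higher, 21.4% of the nuclear genes tested beside 26.2% of all genes. NDUFA4L2, a paralog of the subunit NDUFA4 known from hypoxia responses, held 8, 7 and 12 counts in untreated and 17, 27 and 22 counts in treated libraries (chr12:57234903-57240715, minus strand). The groups did not overlap, and the log2 fold change was 1.24 (SE 0.33, adjusted p = 0.0091, edgeR) at a level near 1 CPM or below. NDUFA4 itself was at 207.1 ± 7.81 against 198.0 ± 1.66 CPM (SD, n = 3; not called). COX7A2L, a paralog of COX7A that takes part in binding complexes III and IV together, stood at 116.1, 124.1 and 115.1 CPM in untreated and 138.0, 141.0 and 150.4 CPM in treated libraries (chr2:42333546-42425088, minus strand). Its log2 fold change was 0.27 (SE 0.040, adjusted p = 2.4e-04, edgeR) and only 1.69% of its words occur in another gene. COX6B2, a form known from testis, rose from 10.9 ± 0.562 to 14.0 ± 0.235 CPM (SD, n = 3; log2 fold change 0.36, adjusted p = 0.0010, edgeR), and 39.1% of its words are shared, while its counterpart COX6B1 was lower.

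The mtDNA-encoded genes are transcribed as long precursors from both strands of the mitochondrial genome, and the messengers are cut out at the transfer RNAs that lie between most of them. Per length, the highest untreated levels were MT-CO1 at 3124 ± 90.3 and MT-CO2 at 2898 ± 87.2 CPM per kb (mean ± SD, n = 3). MT-CO3 (2307), MT-ATP6 (1740) and MT-ND4 (1721) followed, in CPM per kb, and the lowest were MT-ND2 (696), MT-ND3 (695) and MT-ND1 (677). Levels were divided by full gene length without allowing for fragment size, so the ranks of short genes such as MT-ND3 (346 bases) are uncertain. MT-ATP6 and MT-ND4 did not differ beyond their spread, nor did MT-ND2 and MT-ND3. MT-ATP8 with MT-ATP6 and MT-ND4L with MT-ND4 lie on shared messengers and overlap, so their reads are divided by the software.

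MT-CO3, the third core subunit of complex IV, and MT-CYB, cytochrome b of complex III, were lower, and the remaining 11 genes were not called. MT-CO3 (chrM:9207-9990, plus strand) stood at 1762, 1867 and 1797 CPM in untreated and 1605, 1466 and 1543 CPM in treated libraries (log2 fold change -0.23, SE 0.033, adjusted p = 1.6e-04, edgeR). MT-CYB (chrM:14747-15887, plus strand) stood at 1054, 1054 and 1067 CPM against 970.0, 885.1 and 948.6 CPM (log2 fold change -0.18, SE 0.031, adjusted p = 6.7e-04, edgeR). Neither gene's groups overlapped, and both stayed past the threshold in all 15 alternatives. MT-CO3 shares 45% of its words with other genes and MT-CYB 4.95%.

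The neighbours of both genes gave different values. MT-ATP6 lies directly before MT-CO3 with 1 shared base and no transfer RNA between them, and its level was 1185 ± 17.1 against 1150 ± 57.1 CPM (mean ± SD, n = 3; log2 fold change -0.044, not called). The junction is shown because these neighbours had unlike values, with the first codon of MT-CO3 in capitals (hg38, plus strand).
MT-ATP6 to MT-CO3 (chrM:9177-9236): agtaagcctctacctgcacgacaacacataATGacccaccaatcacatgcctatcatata
The ratio of MT-CO3 to MT-ATP6 in CPM was 1.511, 1.570 and 1.498 in untreated and 1.337, 1.348 and 1.329 in treated libraries, and the ratio of MT-CYB to MT-ND5 was 0.666, 0.661 and 0.640 against 0.564, 0.554 and 0.547. In both ratios all treated libraries lay below all untreated ones. The ratios were picked after the values were seen.

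MT-ND4 and MT-ND6 lay just short of the threshold. MT-ND6, the sole protein gene on the other strand, had a log2 fold change of 0.079 (adjusted p = 0.061, edgeR) and MT-ND4 one of 0.073 (adjusted p = 0.054). Both were called higher in 5 alternatives, among them scaling by library size alone, where 2 mtDNA genes were higher and 2 lower. Without Y-320 replicate 2, which had the lowest mtDNA share of all libraries, 5 were higher (MT-ND3, MT-ND4L, MT-ND4, MT-ND5 and MT-ND6). Nuclear copies of mtDNA can take reads, and rows for such pseudogenes held 0.947% to 0.982% of the summed counts of mtDNA genes and copies, in similar shares in both groups. The strand setting of the counting is not given in the sources used here, so reads from MT-ND6 and from the opposite strand may not have been told apart.

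**Figure D3:**
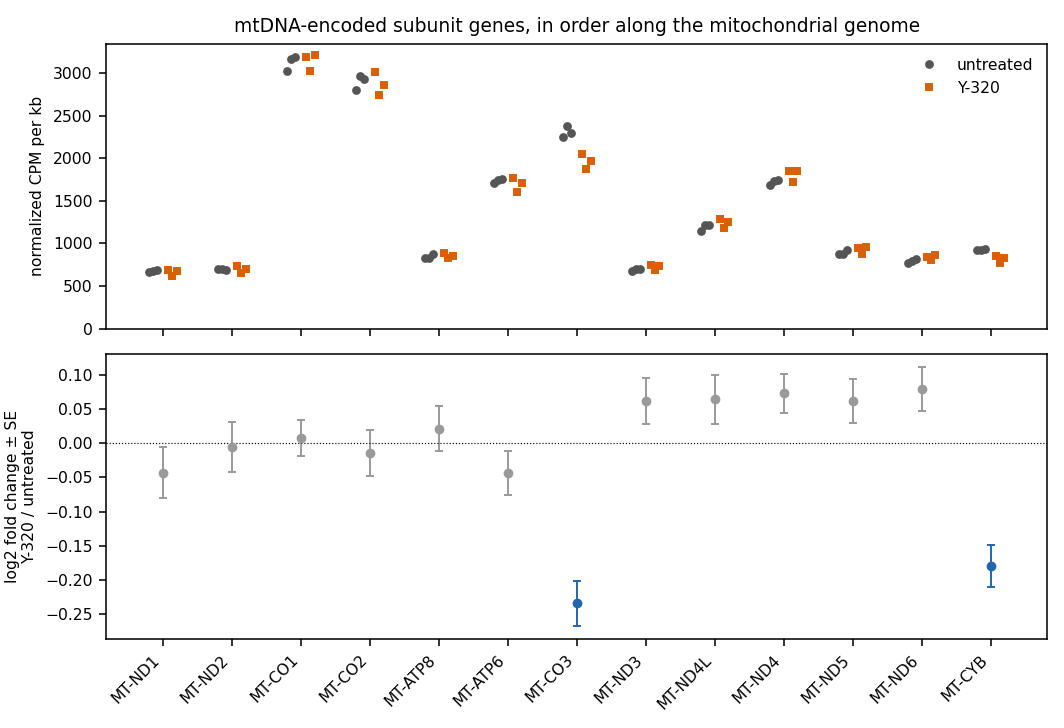
Normalized CPM per kb of each mtDNA-encoded gene in each library (upper panel, y axis) and its log2 fold change with SE (lower panel, y axis), in order along the mitochondrial genome (x axis). Grey circles are untreated and orange squares treated libraries, and blue points in the lower panel were called lower. MT-CO3 and MT-CYB lie below their neighbours, and the 11 other genes lie between -0.044 and 0.079.

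Some members could not be measured or rest on shared reads. Beside the isoforms already named, NDUFA6 (0 to 8.1 counts) and ATP5MGL (0 to 4.18 counts) were not tested, which leaves 7 members without a test. For NDUFA6, NDUFA10, NDUFS1, NDUFS3 and UQCRC2 a further row without a gene name held identical values in every library, so their printed levels may be divided. The readthrough rows were lower, ATP5MF-PTCD1 at 12.6 ± 2.50 against 7.97 ± 0.951 CPM and NDUFC2-KCTD14 at 4.28 ± 1.34 against 2.08 ± 0.928 CPM (mean ± SD, n = 3). They share 98.9% and 94.6% of their words with other genes, and the groups of NDUFC2-KCTD14 overlapped. Its call was lost when untreated replicate 1 or 3, or Y-320 replicate 2 or 3, was left out (adjusted p of 0.063 to 0.065, edgeR).

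Genes that build, feed and regulate the chain were read beside the subunits, against the same backgrounds of 26.2% higher and 25.4% lower. Of 50 assembly factors 19 were lower (38.0%) and 7 higher (14.0%). HIGD1A, a factor that associates with complexes III and IV, fell from 118.2 ± 1.53 to 89.0 ± 1.27 CPM (mean ± SD, n = 3; log2 fold change -0.41, adjusted p = 7.2e-07, edgeR). PET117 (-0.51) and NDUFAF4 (-0.39) were also lower, and COX19 (0.55), COA8 (0.43) and FOXRED1 (0.42), which assist complexes IV and I, were higher on the log2 scale.

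Of 33 genes tested that copy, transcribe or process mtDNA, 17 were lower (51.5%) and 6 higher (18.2%), and 1 listed gene was not matched. TFAM, which packages mtDNA and starts its transcription, stood at 69.9, 66.1 and 64.1 CPM in untreated and 45.6, 46.1 and 51.5 CPM in treated libraries (log2 fold change -0.48, SE 0.052, adjusted p = 2.5e-05, edgeR). MTERF2 (-0.78) and FASTKD1 (-0.49) were lower too, as were TRMT10C (-0.30), HSD17B10 (-0.35) and PRORP (-0.36), the subunits of the enzyme that cuts transfer RNAs at their 5′ ends. The mitochondrial polymerases POLRMT (RNA, 0.25) and POLG (DNA, 0.38) were higher, as was FASTK (0.33), all as log2 fold changes. TRMT10C, HSD17B10 and PRORP were picked after their values were seen.

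Of 23 genes of coenzyme Q synthesis and electron entry, 8 were higher (34.8%) and 6 lower (26.1%). Cytochrome c, the carrier between complexes III and IV, is encoded by CYCS, which stood at 198.4, 175.4 and 173.9 CPM in untreated and 246.9, 247.1 and 254.9 CPM in treated libraries (log2 fold change 0.45, SE 0.046, adjusted p = 1.5e-05, edgeR). SQOR, which oxidises sulfide, was higher by 0.63 and PDSS2, of the coenzyme Q tail, by 0.35, while SUOX, the sulfite oxidase, was lower by 0.69 on the log2 scale. Of 13 citric acid cycle genes 6 were lower (46.2%), led by DLD (-0.35), FH (-0.32) and SUCLA2 (-0.31), and 2 higher, IDH3G (0.20) and DLST (0.080).

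Of the 15 regulators tested 5 were higher (33.3%) and 3 lower (20.0%). LONP1, the protease of the mitochondrial matrix, rose from 59.9, 61.3 and 62.3 CPM in untreated to 118.9, 124.8 and 127.3 CPM in treated libraries (log2 fold change 1.01, SE 0.035, adjusted p = 6.6e-09, edgeR). The matrix peptidase CLPP (0.30) and the coactivator PPRC1 (0.46) were higher as well. GABPA (-0.35) and GABPB1 (-0.20), subunits of the ETS factor GABP, and TFEB (-0.50) were lower on the log2 scale. The further GABP subunit gene GABPB2 was not called at 0.10 (adjusted p = 0.24, edgeR). NRF1 was not called at -0.14 (adjusted p = 0.087, edgeR), both on the log2 scale.

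**Figure D4:**
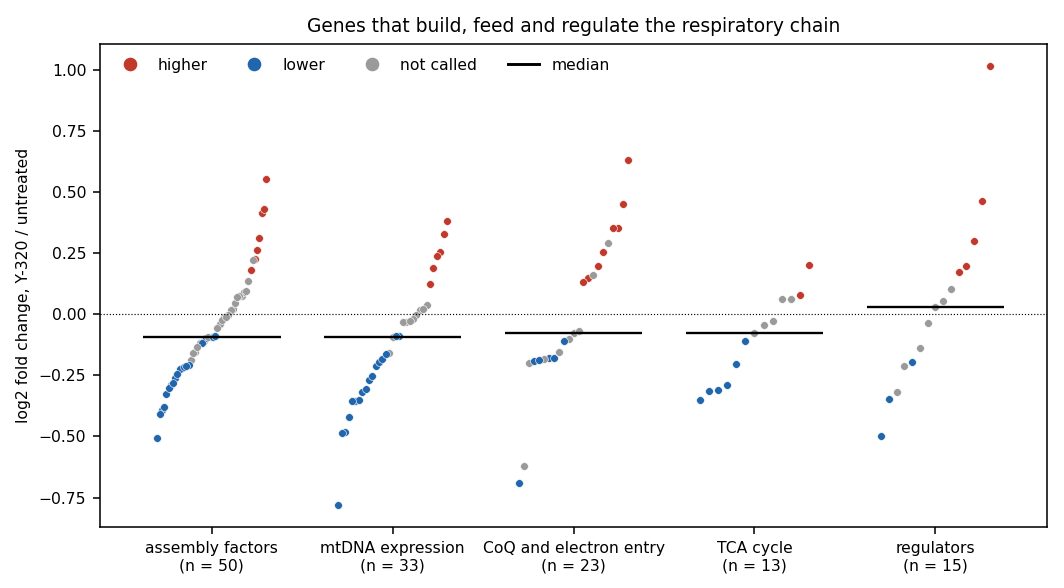
Log2 fold change (y axis, Y-320 over untreated) of each tested gene in the lists of assembly factors, mtDNA expression, coenzyme Q and electron entry, citric acid cycle (TCA) and regulators (x axis). Points are genes coloured by their call at an adjusted p of 0.05, and black bars are medians. LONP1 stands highest at 1.01 and MTERF2 lowest at -0.78.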

How the data were processed

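For each of the 6 libraries the authors deposited estimated counts by gene, made with kallisto 0.46.1 on Ensembl genes (GRCh38/hg38) per the labels and without normalization. The Ensembl release and the strand setting are not given in the sources used here. Counts were rounded and matched by Ensembl identifier to GENCODE 44 (35390 of 40295 matched). Genes with low counts were removed (filterByExpr, minimum 10 counts and 15 in total). TMM scaling and the quasi-likelihood test of edgeR 4.0.16 (R 4.3.3) followed, with no block in the model. P-values were adjusted by Benjamini-Hochberg over all genes, with a threshold of 0.05, and SEs follow from the F statistic. Depth was 21045401 to 22740535 counts, and 1 count was worth 0.0440 to 0.0475 CPM. The floor of 3 counts covers counting error only. DESeq2 1.42.0 and limma-voom (limma 3.58.1) were alternatives, beside other filters and scalings, a replicate block and leaving out each library. The fit was also run on simulated counts, with 196 changed genes among 16394 tested. It recovered 89.3% of them, and 4.89% of its calls were false. In the data 8546 genes were called, so that run does not gauge the calls reported here. Python 3.11.15 made tables and plots. Shared words are the 31-base words of a gene's canonical transcript that occur, on either strand, in a transcript of another gene.

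Members and gene lists were chosen with earlier results of these data known. Named were all mtDNA genes, catalytic subunits, paired isoforms, untested members, readthrough rows, and the 3 highest and 3 lowest called genes of each complex and list. NDUFA4 and NDUFA4L2 were counted in complex IV. Some items are not reported here.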

Additional observations from a re-analysis of the deposited data

How the results depend on the processing

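Of the 49 members called, 39 stayed past the threshold in all 15 alternative fits and in all 6 fits that left out a library, and 0 changed sign in any of them. Members higher with Y-320 numbered 6 and became 10 with library size scaling, 2 without members that share sequence, and 5 to 10 when a library was left out. Nuclear members lower numbered 41, with 35 to 49 in the other fits but 11 without members that share sequence (12 of all members), where nuclear members higher numbered 2. Fewer genes remain there, and the share called lower among nuclear complex subunits was also smaller, 31.4% (11 of 35) against 48.1% (39 of 81). mtDNA members higher numbered 0 and became 2 without a filter, with DESeq2, with library size scaling and with the replicate block, and 0 to 5 when a library was left out, with 5 only without Y-320 replicate 2. The nuclear median was -0.089, and was -0.118 with upper quartile scaling (which set the median of all genes to -0.028), -0.067 without members that share sequence, -0.107 once the trend on transcript length and GC content was removed (chosen after seeing the data) and -0.107 to -0.081 when a library was left out. The mtDNA median of 0.008 became -0.059 over the members without shared sequence, which are MT-ND3 and MT-CYB. Coenzyme Q genes higher (8) numbered 5 without untreated replicate 2 or Y-320 replicate 2, and 6 to 9 in the other fits. Citric acid cycle genes higher (2) numbered 1 with upper quartile scaling and 1 without untreated replicate 1 or 3 or Y-320 replicate 3. The cause of these shifts was not tested.

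Same-numbered libraries did not deviate together (correlations of deviations from the group means of -0.014, 0.011 and 0), so no pairing was seen in the values. The labels do not say whether they were handled together. With the replicate block, 46 members were lower and 8 higher, and 4285 genes in all were higher and 4159 lower. At about 1 CPM or below, as for NDUFA4L2 and UQCRHL, depth limits what can be seen.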
